A study of Mus musculus with 11 samples.

Results

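In mouse E14 embryonic stem cells, most places where an antibody against trimethylated lysine 9 of histone H3 (H3K9me3) found a peak were small, CpG-poor and outside protein-coding genes. The regions described here are the unified H3K9me3 peaks on chromosomes 1 to 19 that were under 5 kb wide, overlapped no unified H3K4me1 or H3K27me3 peak, held fewer than 20 CpGs per kb and overlapped no protein-coding gene body. They numbered 12401 of 20576 unified H3K9me3 peaks (60.3%). Peak calls, width, CpG density and gene overlap chose the regions, so these properties are given as descriptions. DNA methylation was not part of the choice. Closest to the CpG limit, regions at chr14:16057254-16058504 and chr9:5933626-5934826 had 19.98 CpGs per kb and H3K9me3 run 2 methylation levels of 55.7 and 62.1%. The peaks just outside, chr15:82527421-82531170 and chr19:10178159-10179708, had 20 CpGs per kb and levels of 92.0 and 95.7%. These single peaks do not stand for their sides of the limit. All regions of 15 to 20 CpGs per kb had a run 2 level of 87.8%. H3K9me3-only peaks under 5 kb with 20 or more CpGs per kb had 80.7%. Closest to the width limit, chr6:52506761-52511757 (4997 bp) and chr17:64869573-64874567 (4995 bp) had levels of 92.4 and 74.3%, and the excluded chr7:31587003-31592003 (5001 bp) and chr1:119172272-119177276 (5005 bp) had 85.3 and 91.7%.

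CUT&Tag-BS measures a histone mark and DNA methylation on the same DNA molecules: antibody-bound chromatin is cut by a tethered transposase, and the released fragments are bisulfite converted before sequencing, so that methylated cytosines remain readable as cytosines. All 11 samples came from E14 cells, an established line of 129/Ola background, kept in serum with leukemia inhibitory factor. H3K9me3 and H3K4me1 each had bisulfite run 1 (35-bp paired-end reads), bisulfite run 2 (75-bp reads) and a control without bisulfite, all from 250000 cells; H3K27me3 had bisulfite libraries from 4000, 20000, 100000 and 250000 cells and a control from 250000. No treatment or genotype was varied. The labels do not say whether the runs of a mark came from separate cultures or are repeat sequencing of the same library, and the remaining libraries have no replicate, so differences between libraries below are descriptions of these libraries. The files hold no expression data, and the identity of the cells could not be checked against marker genes.

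The H3K9me3 runs held 2012835 and 6355757 CpG calls over all chromosomes, the H3K4me1 runs 4917718 and 9690770, and the H3K27me3 libraries from 378056 to 37177077. A call is 1 read-out of 1 CpG as methylated or unmethylated, and a methylation level is the share of methylated calls among all calls. Of the 12401 regions, 43 held no CpG, 34 held CpGs but no call in H3K9me3 run 2, 997 had 1 to 9 calls there and 11327 (91.3%) had at least 10, the minimum for a level per region. In run 1, 7618 regions reached it. Amplified copies and calls on the same fragment are not independent, so the intervals below cover counting error only.

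H3K9me3 is the mark of constitutive heterochromatin. In embryonic stem cells it is laid down on endogenous retroviruses and other transposable elements by the methyltransferase SETDB1, which is recruited through TRIM28 by zinc finger proteins that recognise the sequence of an element. DNA methylation, kept by DNMT1 and placed by DNMT3A and DNMT3B, often coincides with it, and both silence such elements. CpGs are scarce over most of the mouse genome because methylated cytosine is prone to mutate.

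Sequence was at hand where a 300-base RefSeq promoter window around a gene start (GRCm38.p6) lay wholly within a region. This held for 74 windows of 67 genes, all of them long non-coding RNA genes. By the rule, no window around the start of a protein-coding gene can lie in a region. The first 3 sequences shown had the most run 2 calls and the fourth the lowest level among windows with at least 10, so that the methylated and the unmethylated end of the range can be seen. Each is printed 5′ to 3′ on the plus strand with every CpG in capitals.
Gm20110, chr10:99608921-99609220: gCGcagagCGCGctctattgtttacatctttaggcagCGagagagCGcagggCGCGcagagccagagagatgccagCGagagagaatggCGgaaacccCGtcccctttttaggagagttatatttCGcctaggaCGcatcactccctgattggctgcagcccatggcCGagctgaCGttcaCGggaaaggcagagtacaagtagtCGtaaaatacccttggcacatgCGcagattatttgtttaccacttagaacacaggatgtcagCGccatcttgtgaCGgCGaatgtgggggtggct
Gm35407, chr3:67753350-67753649: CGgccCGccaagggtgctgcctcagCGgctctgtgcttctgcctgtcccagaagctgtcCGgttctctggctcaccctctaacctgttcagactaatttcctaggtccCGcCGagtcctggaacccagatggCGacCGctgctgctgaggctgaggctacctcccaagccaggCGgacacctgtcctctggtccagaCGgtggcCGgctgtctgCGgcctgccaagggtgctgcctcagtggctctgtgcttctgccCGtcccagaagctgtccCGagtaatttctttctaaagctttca
Gm31731, chr2:74286022-74286321: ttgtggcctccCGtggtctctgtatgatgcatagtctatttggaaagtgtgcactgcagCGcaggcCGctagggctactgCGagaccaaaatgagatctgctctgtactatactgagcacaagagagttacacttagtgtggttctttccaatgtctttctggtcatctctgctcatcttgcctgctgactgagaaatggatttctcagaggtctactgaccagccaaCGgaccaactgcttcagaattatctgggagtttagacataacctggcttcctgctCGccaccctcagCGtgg
Gm41331, chr15:60141661-60141960: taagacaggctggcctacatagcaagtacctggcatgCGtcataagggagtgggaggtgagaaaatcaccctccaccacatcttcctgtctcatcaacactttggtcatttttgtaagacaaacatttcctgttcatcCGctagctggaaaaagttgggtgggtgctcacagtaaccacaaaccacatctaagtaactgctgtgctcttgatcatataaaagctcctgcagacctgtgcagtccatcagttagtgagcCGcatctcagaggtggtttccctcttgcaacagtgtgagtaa
The Gm20110 window held 20 CpGs and lay in a region of all 3 H3K9me3 lists (chr10:99607005-99611745). Methylated calls made up 22 of 24 in run 1 and 92 of 100 in run 2 (92%, Wilson 95% interval 85 to 95.9%). In the Gm35407 window, with 14 CpGs, they made up 12 of 19 and 60 of 73 (82.2%, 71.9 to 89.3%). The Gm31731 window had 7 CpGs, of which 13 of 13 run 1 calls, 69 of 72 run 2 calls (95.8%, 88.5 to 98.6%) and 5 of 5 calls of the 250000-cell H3K27me3 library were methylated. The Gm41331 window was at the opposite end, with 3 CpGs, 1 methylated call of 18 in run 1 and 0 of 26 in run 2, which allows a level of up to 11.5%. All 4 lay in regions that each of the 3 H3K9me3 lists contained.

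Over all 74 windows the level was 71.5% in run 1 (410 calls) and 76.7% in run 2 (1140 calls). The 11109 windows of long non-coding RNA genes that did not lie wholly within an H3K9me3 peak had 40.6 and 43.7% in the same runs. These comparison windows may overlap an H3K9me3 peak in part. They were not filtered for H3K4me1 or H3K27me3 peaks, which the regions lack by the rule. Nor were they filtered for CpG density or for overlap with protein-coding genes, which the rule also limits in the regions. In the 250000-cell H3K27me3 library the windows in the regions had 47.1% from only 68 calls, and the comparison windows 9.89% from 582753 calls. What the filters of the rule, among them the exclusion of H3K27me3 peaks, contribute to the differences in these libraries was not tested. Windows in the regions had a median GC content of 46.5% and 3 CpGs, against 48.3% and 4 CpGs in the comparison windows. The letters TGCCGC, the core recognised by the zinc finger protein ZFP57, were searched on both strands. They were found in 6 of the 74 windows (8.11%) and in 6.99% of the comparison windows. Of all 31396 windows of the same length, 11.6% held them.

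The regions were highly methylated in both H3K9me3 runs. Run 1 gave 86.5% (95% interval 86.3 to 86.6%, 223080 calls) and run 2 86.6% (86.5 to 86.6%, 737578 calls). The mean of the runs was 86.5% with an SD of 0.0490 points between them. The 19 chromosomes ranged from 84.4 to 88.0% in run 1 and from 84.9 to 87.6% in run 2. Run 1 called 53.8% of the 219365 CpGs in the regions and run 2 called 88.8%, at 3.36 calls per CpG.

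Per region, the run 2 levels were concentrated near full methylation. Among the 11327 regions with at least 10 calls, the median was 89.7% and the quartiles were 81.8 and 94.2%. More than 80% methylation was found in 8839 regions (78.0%), 50 to 80% in 2133 (18.8%) and less than 50% in 355 (3.13%), of which 63 lay under 20%. Every call was methylated in 793 regions (7.0%). Run 1 had the same shape, with a median of 90% and 201 of 7618 regions (2.64%) under 50%. In the 7606 regions that reached 10 calls in both runs, the levels differed by a median of 4.57 points, and 6253 regions (82.2%) lay within 10 points. Of 180 such regions under 50% in run 2 and 200 in run 1, 128 were under 50% in both.

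**Figure D1:**
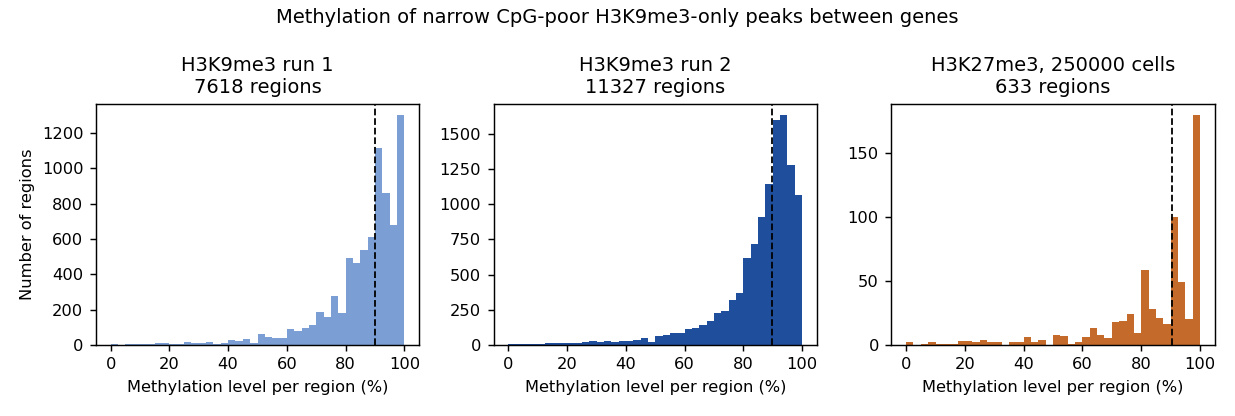
Number of regions (vertical axis) by methylation level (horizontal axis, %) in H3K9me3 run 1, H3K9me3 run 2 and the 250000-cell H3K27me3 library, for regions with at least 10 calls, with the median as a dashed line. The medians lie at 90, 89.7 and 90.5%, and each histogram has a thin tail towards low levels.

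The deepest covered regions were evenly methylated and in all 3 lists. The region with most calls, chr15:8926447-8931357, overlapped the pseudogene Gm5210 and lay 36.6 kb from Ranbp3l. It had 91.3% methylation in run 1 (149 calls), 91.8% in run 2 (599 calls) and 95.2% in the 250000-cell H3K27me3 library (21 calls). At chr6:121955054-121959961, over the murinoglobulin pseudogene Mug4-ps, the runs gave 93.0% of 128 calls and 91.8% of 502. At chr13:105738616-105743495, 290.5 kb from the serotonin receptor gene Htr1a, they gave 91.3% of 184 and 91.2% of 442. The regions at chr3:106438734-106442154, nearest to the chitinase-like gene Chil6, and chr1:155764418-155768625, nearest to the sulfhydryl oxidase gene Qsox1, had 93.1% of 477 and 89.7% of 445 calls in run 2. Across the 5 regions and both runs the levels stayed between 89.7 and 97.0%.

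The 5 lowest regions with at least 30 calls in run 2 and 10 in run 1 were nearly unmethylated. At chr2:39372552-39373841, 146.2 kb from the phosphatase gene Ppp6c, 0 of 34 run 2 calls were methylated, which allows a level of up to 8.82%, and 13.3% of 30 run 1 calls were. At chr4:152799115-152800115, 235.9 kb from the ciliary gene Nphp4, run 2 had 2.99% of 67 calls and run 1 had 0 of 30 (up to 10%). The 250000-cell H3K27me3 library had 0 of 59 calls methylated there (up to 5.09%) and the 100000-cell library 2.08% of 48, so this region was low in every library that read it well. It held 19 CpGs, close to the density limit, and was in the run 2 list only. The region chr13:86097148-86098959, nearest to the respiratory chain gene Cox7c, had 4.44% of its 45 run 2 calls and 9.09% of its 11 run 1 calls methylated. At chr4:140282996-140284124, nearest to Igsf21, they were 9.20% of 87 and 16% of 25. The region at chr18:50811427-50812704, nearest to Pudp, had 2.70% of 37 and 15.8% of 19 calls and only 5 CpGs. Apart from the Nphp4 neighbour, these regions held 5 to 9 CpGs each, and H3K27me3 calls there numbered at most 8 per library. At the Ppp6c neighbour those few calls did not share the low level: 4 of 8 were methylated in the 100000-cell and 1 of 2 in the 250000-cell H3K27me3 library, and 1 of 1 in each H3K4me1 run. Near Igsf21, 0 of 4 and 0 of 2 were methylated in the same H3K27me3 libraries.

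Regions that were low in H3K9me3 run 2 were also low in the libraries of the other marks. The 355 regions under 50% had a level of 34.9% in the 250000-cell H3K27me3 library (1032 calls) and 25.7% in H3K4me1 run 2 (2925 calls). Those of 50 to 80% had 71.1 and 49.1%. Those over 80% had 89.4% (22861 calls) and 73.6% (6150 calls). The low regions were narrower than those over 80%, with a median width of 1293 bp against 1593 bp, had 6.91 against 9.60 CpGs per kb, and 42.0% against 54.5% were in the list of the control without bisulfite. Their share in the run 2 list alone was 36.1%, against 29.5%. Per region they also held more H3K4me1 run 2 calls, 2925 over 355 regions, against 6150 over the 8839 regions above 80%. What these properties contribute to the low levels was not tested.

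**Figure D2:**
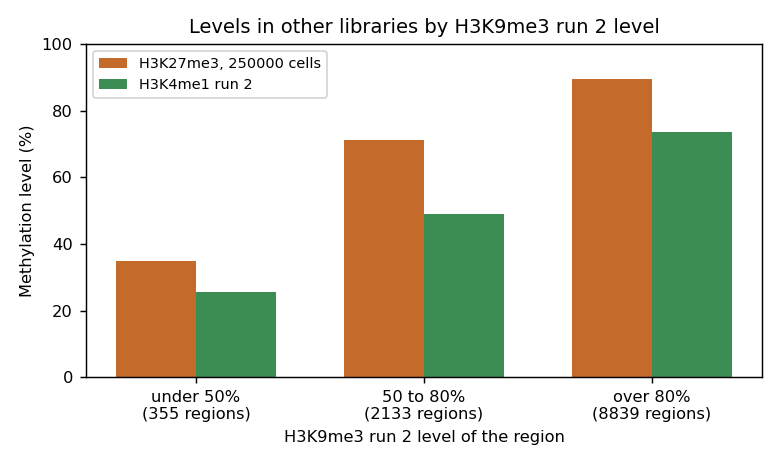
Methylation level (vertical axis, %) in the 250000-cell H3K27me3 library and H3K4me1 run 2, pooled over regions grouped by their H3K9me3 run 2 level (horizontal axis, with the number of regions). In both libraries the bars climb from left to right, from 34.9 to 89.4% for H3K27me3 and from 25.7 to 73.6% for H3K4me1.

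The levels were next set beside those of the other H3K9me3 peaks. The 3207 narrow CpG-poor peaks within protein-coding genes had 87.2%, a difference of -0.67 points for the regions between genes, which were lower on 14 of 19 chromosomes. The SD between runs of the within-gene level was 0.234 points. The 2052 wide H3K9me3-only peaks had 88.1%, a difference of -1.55 points for the regions between genes, which were lower on 16 of 19 chromosomes. The 1348 narrow CpG-rich peaks had 80.2%, and the 1568 peaks that also overlapped an H3K4me1 or H3K27me3 peak had 67.0%. Against these classes the regions between genes were higher on 18 and on all 19 chromosomes. Chromosomes share a library and are not replicates. Levels under 50% occurred in 72 of 2948 within-gene peaks (2.44%), 13 of 2052 wide peaks (0.634%), 109 of 1347 CpG-rich peaks (8.09%) and 574 of 1442 peaks with another mark (39.8%).

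**Figure D3:**
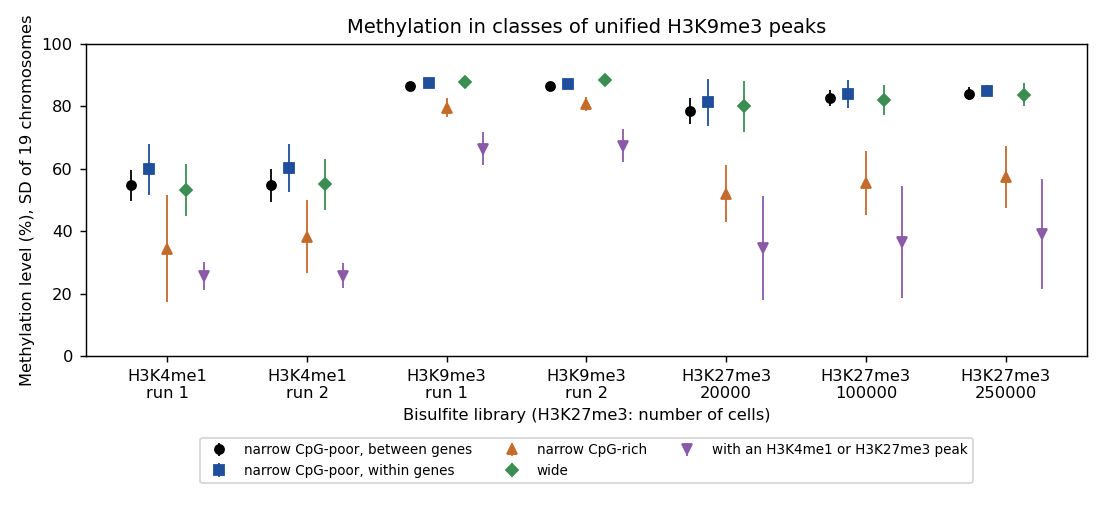
Methylation level (vertical axis, %) of 5 classes of unified H3K9me3 peaks in 7 bisulfite libraries (horizontal axis; the 4000-cell library is left out as too shallow). Points are levels over all calls and bars the SD of the 19 chromosome levels. The narrow CpG-poor peaks between genes sit near 86.5% in both H3K9me3 runs, near 54.7% in both H3K4me1 runs and from 78.4 to 84.0% in the H3K27me3 libraries.

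The regions hold no peak of the other antibodies, whose libraries read fewer of their CpGs. The H3K27me3 level was higher in the libraries of more cells, with 72.0% of 403 calls for 4000 cells, 78.4% of 4076 for 20000, 82.8% of 18698 for 100000 and 84.0% of 29967 for 250000 cells. The intervals of the 2 deepest, 82.3 to 83.3% and 83.6 to 84.4%, do not overlap. The H3K4me1 runs both gave 54.7% (7233 and 15532 calls). The 250000-cell H3K27me3 library called 11.3% of the CpGs in the regions, so CpG choice differed between libraries.

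At CpGs called in both libraries, the distance to H3K27me3 nearly closed, while that to H3K4me1 did not. At 23079 CpGs shared with the 250000-cell H3K27me3 library, H3K9me3 run 2 had 84.7% (100094 calls) and H3K27me3 84.1% (27885 calls). The difference was 0.579 points, with H3K9me3 higher on 11 chromosomes and lower on 8, against 2.54 points over all CpGs. At 9868 CpGs shared with H3K4me1 run 2, the levels were 67.7 and 54.5%, a difference of 13.3 points against 31.9 over all CpGs, with H3K9me3 higher on all 19 chromosomes. In the runs 1 the difference was 12.9 points at 3818 shared CpGs. CpGs that H3K4me1 read were thus less methylated in the H3K9me3 library as well, 67.7% against 86.6% over all CpGs of the regions.

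Single regions were compared between H3K9me3 run 2 and the 250000-cell H3K27me3 library with Fisher's exact test on methylated and unmethylated calls, two-sided, with Benjamini-Hochberg adjustment over all unified H3K9me3 peaks with at least 10 calls in each. Of 633 regions tested, 16 (2.53%) were higher in H3K9me3 at an adjusted p under 0.05, against 7.13% of all 2355 peaks tested. The 2355 include peaks with another mark, which had 1.21 H3K27me3 calls per CpG against 0.137 in the regions. In Fisher's test 0 regions were lower, against 0.212% of all peaks. Without adjustment, 42 of the 633 had a p under 0.05 in either direction. The share of all peaks at that threshold was not computed, so no difference is read from this count. The median difference over the 633 regions was -1.51 points, with quartiles of -7.89 and 6.66. The median region had 97 calls in H3K9me3 and 13 in H3K27me3. At such depth even the differences of -26.7, -20.7 and -19.4 points given below did not pass. The median H3K27me3 level of these regions was 90.5%, and 180 of the 633 were at 100%. Levels so near the ceiling leave little room for a region to be called lower in H3K9me3. The counts in the 2 directions therefore cannot be set against each other. The test compares these 2 libraries and not the marks.

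Among regions with at least 20 calls in each library, the largest excess in H3K9me3 was at chr1:181270513-181273952, nearest to Gm38664, a region of 57 CpGs in all 3 lists. H3K9me3 run 1 gave 63.2% of 95 calls, run 2 gave 72.2% of 302 and H3K27me3 gave 20% of 30, a difference of 52.2 points (Fisher's exact test, adjusted p = 1.12e-06). At chr9:35817430-35821882, nearest to Pate5, the levels were 75.9, 87.1 and 40.3% (29, 147 and 62 calls), a difference of 46.8 points (Fisher's exact test, adjusted p = 9.53e-10). At chr9:99729981-99732301, nearest to the tight junction gene Cldn18, they were 69.7, 51.6 and 6.45% (33, 97 and 31 calls), a difference of 45.1 points (Fisher's exact test, adjusted p = 0.00013). These 3 regions were picked for this difference, so run 2 lay above H3K27me3 by the choice. Run 1, which may come from the same library, lay above it as well. In the smaller 100000-cell H3K27me3 library the levels were 38.9, 66.7 and 42.1% of 18, 33 and 19 calls. These were above those of the 250000-cell library each time.

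The largest differences the other way did not pass. At chr4:49420185-49423950, nearest to the acyltransferase gene Acnat2, H3K9me3 run 2 gave 63.8% of 185 calls and H3K27me3 90.5% of 21, a difference of -26.7 points (Fisher's exact test, adjusted p = 0.143). Run 1 gave 76.7% of 30. At chr2:178622254-178623301, nearest to the cadherin gene Cdh26, and chr15:80268903-80271044, nearest to Rps19bp1, the differences were -20.7 and -19.4 points (Fisher's exact test, adjusted p = 0.428 and 0.475). The 100000-cell H3K27me3 library had 75% of 16 calls, 88.9% of 9 and 63.2% of 19 methylated in these regions, and at the last of them this lay below both H3K9me3 runs, which gave 69.8% (53 calls) and 67.6% (151 calls).

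Against H3K4me1 run 2, 425 regions had at least 10 calls in each library. H3K9me3 was higher in 99 of them (23.3%) and lower in 1 (0.235%), against 41.5 and 0.181% of the 2204 peaks tested. The median difference was 13.6 points, with quartiles of 1.30 and 27.2, and 19.3 points over all peaks tested. These 425 regions are those that H3K4me1 fragments happened to reach, with a median of 65 H3K9me3 and 15 H3K4me1 calls. The peaks tested also include peaks with another mark, of which 1276 had at least 10 H3K4me1 run 2 calls. Peaks with another mark had 2.06 H3K4me1 run 2 calls per CpG, against 0.0708 in the regions. What depth and the exclusion of H3K4me1 peaks contribute to the lower share in the regions was not tested.

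The H3K9me3 level was similar on both sides of the edges of the regions. In flanks of 1 to 5 kb on either side, outside every unified peak, run 1 gave 85.7% and run 2 86.3%. The inside exceeded the flank by 0.823 points in run 1 (SD 1.31 over chromosomes, higher on 13 and lower on 6) and 0.220 points in run 2 (SD 1.01, higher on 12 and lower on 7). Calls per CpG were 6.41 and 6.31 times as many inside as in the flank. The 250000-cell H3K27me3 library showed a drop in level outside, with 79.6% in the flank, 4.38 points lower (SD 3.62; the inside was higher on 18 chromosomes), and had 0.679 times as many calls per CpG inside as outside. For H3K4me1 the inside differed from the flank by 0.788 and -0.17 points in the 2 runs.

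**Figure D4:**
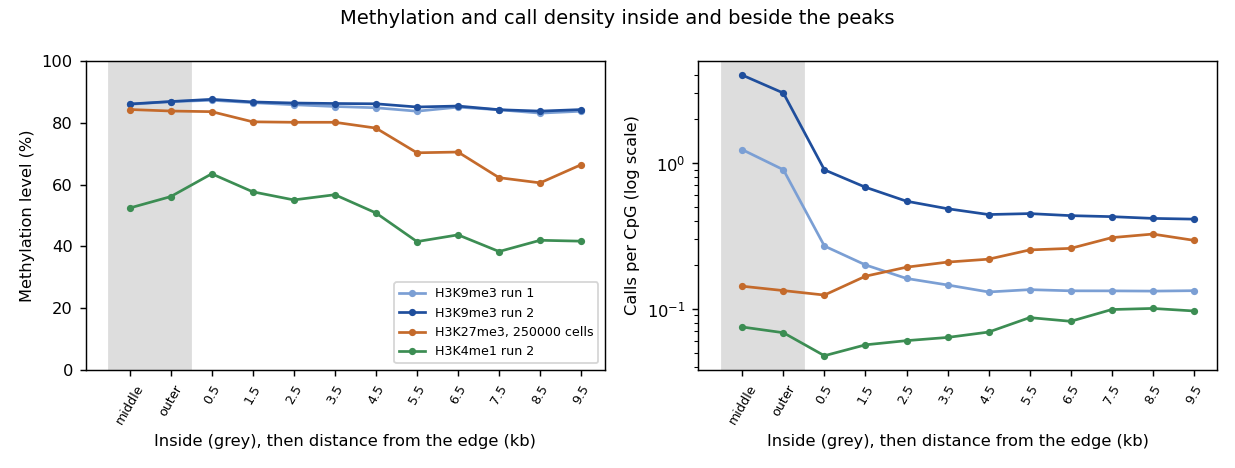
Methylation level (left, %) and calls per CpG (right, log scale) in the middle and the outer parts of the regions (grey) and in 1-kb steps outside all unified peaks (horizontal axis, distance from the edge in kb), for 4 bisulfite libraries. H3K9me3 run 2 goes from 86.1% in the middle to 84.3% at 9.5 kb while its calls per CpG go from 3.99 to 0.411, and H3K27me3 goes from 84.3% to 66.4% while its calls per CpG go from 0.143 to 0.294.

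Farther out the libraries parted. With each region cut into 3 equal parts, H3K9me3 run 2 had 86.1% in the middle part, 86.9% in the outer parts, 87.6% at 0.5 kb from the edge and 84.3% at 9.5 kb. The 250000-cell H3K27me3 library had 84.3% in the middle part, 83.6% at 0.5 kb, 70.3% at 5.5 kb and 66.4% at 9.5 kb, and its calls per CpG rose over the same distance. H3K4me1 run 2 went from 52.4% in the middle to 63.5% at 0.5 kb and 41.7% at 9.5 kb. In these H3K4me1 and H3K27me3 libraries the calls per CpG were lowest within 1 kb outside the regions.

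Support by the H3K9me3 peak lists varied. The unified list is the merge of the run 1, run 2 and control lists, so each region is in at least 1 of them. Run 2 held 11617 of the regions (93.7%), run 1 6753 (54.5%) and the control without bisulfite 6275 (50.6%, 95% interval 49.7 to 51.5%). All 3 lists held 4554 (36.7%), with a median width of 2312 bp and 3.76 run 2 calls per CpG. Run 2 alone held 4016 (32.4%), with a median width of 1001 bp and 2.87 calls per CpG. The control alone held 459 (3.70%) and run 1 alone 236 (1.90%). The levels in run 2 were 86.8% for regions in all 3 lists, 85.8% for those of run 2 alone and 88.1% for those of the control alone, so the regions that only run 2 reported were about as methylated as the rest. Among wide H3K9me3-only peaks, 1891 of 2052 (92.2%) were in all 3 lists, and among the narrow CpG-poor peaks within genes 1142 of 3207 (35.6%).

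Width and CpG density, which the choice of regions limited, varied within those limits. The median width was 1515 bp (quartiles 1010 and 2333), and 3102 regions (25%) were 1001 to 1010 bp wide, the narrowest that occur. The median region held 14 CpGs, or 8.81 per kb, and 2575 regions (20.8%) had fewer than 5 per kb. From the narrowest regions, under 1500 bp, to those of 4000 to 5000 bp, the run 2 level went from 85.1 to 88.0%, the share under 50% methylation from 4.13 to 0.832%, and the share in the control list from 27.6 to 87.8%. From fewer than 5 to 15 or more CpGs per kb, the run 2 level went through 82.9, 85.2, 87.6 and 87.8%, and run 1 gave 83.1, 85.1, 87.5 and 87.9%. The share of regions under 50% went from 5.57% (90 of 1616) to 1.18% (19 of 1607) along the same steps. The H3K27me3 level did not follow this order, at 83.8, 83.5, 85.0 and 83.3%.

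The regions lay at all distances from protein-coding genes. The median distance to the nearest was 81.6 kb (quartiles 20.9 and 262.1 kb), and 5666 regions (45.7%) were more than 100 kb and 1641 (13.2%) more than 500 kb away, while 815 (6.57%) were within 5 kb. For 8034 CpG-poor H3K4me1-only peaks between genes the median was 17.3 kb, and 68 (0.846%) were more than 500 kb away. The most remote region, chr14:82181792-82183369, lay 2159 kb from Olfm4 and had 97.9% of 48 run 2 calls methylated. The next 2, chr1:102612214-102613564 and chr1:102568905-102570345, lay 2122 and 2078 kb from Cntnap5b, with 83.5% of 91 calls and 83.3% of 6. The run 2 level went from 85.5% within 5 kb of a gene to 87.6% beyond 500 kb.

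Gene families that are silent in most tissues and form large genomic clusters were among the neighbours. An olfactory receptor gene was nearest for 445 regions (3.59%), spread over 293 genes, and a vomeronasal (pheromone) receptor gene for 296 (2.39%), spread over 147 genes. The same families were nearest for 24 (0.299%) and 3 (0.0373%) of the H3K4me1-only peaks, while they make up 5.34 and 1.71% of protein-coding genes. Zinc finger genes were nearest for 233 regions (1.88%) and 185 H3K4me1-only peaks (2.3%), 2.01% of genes being of this family. Cytochrome P450 genes, which metabolise steroids and foreign compounds and are 0.479% of genes, were nearest for 102 regions (0.823%), and serpin protease inhibitor genes, 0.3% of genes, for 77 (0.621%). Defensin genes, which encode antimicrobial peptides and are 0.344% of genes, were nearest for only 8 regions (0.0645%). UDP glucuronosyltransferase, killer cell lectin-like receptor and Skint genes were nearest for 20, 16 and 1. Other genes were nearest for 11203 regions (90.3%). The run 2 level was 86.6% beside olfactory receptor genes and 85.3% beside vomeronasal receptor genes, close to the 86.6% of all regions.

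The number of regions varied along the chromosomes. Over 2103 1-Mb bins with a region, the median number was 5 and the highest 36, at chr7:85000001-86000000, where the nearest genes were the vomeronasal receptors Vmn2r67 to Vmn2r74. There 20 of the 36 regions were in all 3 lists, and 81.7% of 635 run 1 calls and 83.3% of 2249 run 2 calls were methylated, below those of all regions. The next bins, with 34 regions each, lay at chr3:91000001-92000000, near the peptidoglycan recognition gene Pglyrp3 and S100a7l2 (90.4% of 2221 run 2 calls), and at chr9:19000001-20000000, among Olfr genes and Zfp317 (86.6% of 2498). Non-coding annotation covered few regions: 1176 (9.48%) overlapped a long non-coding RNA gene, with a run 2 level of 86.5%, 409 (3.30%) a pseudogene, with 87.7%, and 10695 (86.2%) no annotated gene of any kind.

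No genome sequence or repeat annotation was used, so shared sequence was sought through the spacing of CpGs, which the deposited table gives for every region. A run of 5 successive CpGs has 4 distances between them, and copies of an interspersed element tend to repeat the same run. Runs found at least 100 times on chromosomes 1 to 19 made up 9769 of 171132 runs in the regions (5.71%), against 5.03% on chromosomes 1 to 19, 0.969% in CpG-poor H3K4me1-only peaks between genes, 5.17% in narrow CpG-poor H3K9me3-only peaks within genes and 17.1% in narrow CpG-rich ones. At least 1 such run was in 1816 of the 11211 regions with 5 CpGs or more (16.2%). These had a run 2 level of 88.2%, against 86.0% for those without.

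The 6 most widely shared spacings are named by their distances in bp, and 591 regions (4.77%) held at least 1 of them. Spacing 5-8-4-30 was in 194 regions on all 19 chromosomes. Of its 2730 copies, 7.11% lay in the regions, 17.6% in any unified H3K9me3 peak and 0 in the H3K4me1-only peaks. The regions hold 1.08% of CpGs, and all unified H3K9me3 peaks 2.79%. Spacing 12-3-13-40 was in 170 regions, with 9.34% of 1831 copies, and 2-8-4-35 in 146, with 7.19% of 2045 copies. Spacing 14-9-3-23 was rarer but the most concentrated of the 6, with 35.4% of 333 copies in 106 regions and 56.8% in any H3K9me3 peak. Spacings 21-19-41-28 and 31-3-7-33 were in 47 and 40 regions. The spacings were picked for being shared by many regions, so their concentration there is a description.

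**Figure D5:**
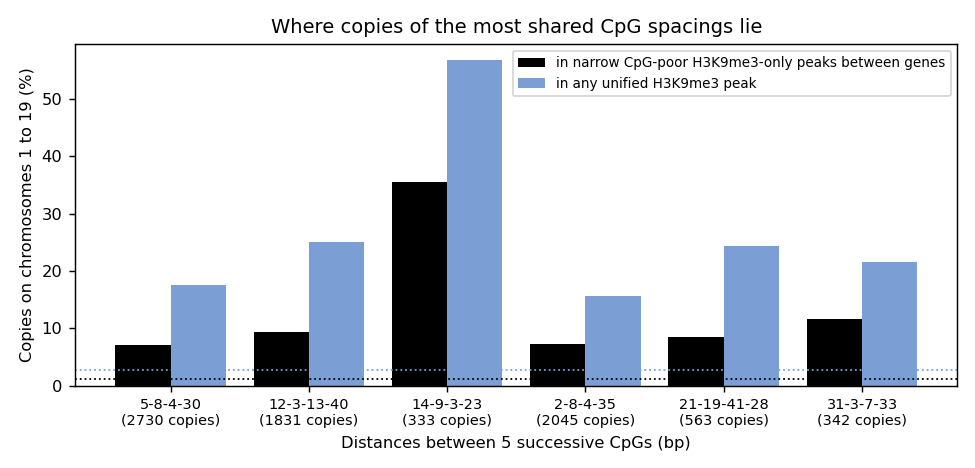
Share of all copies on chromosomes 1 to 19 (vertical axis, %) that lie in the regions (black) and in any unified H3K9me3 peak (blue), for the 6 spacings of 5 successive CpGs most shared among the regions (horizontal axis, distances in bp and number of copies). Dotted lines mark the share of all CpGs in the regions (1.08%) and in any H3K9me3 peak (2.79%), and every bar stands above its line.

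Methylation differed between these groups. Regions with 5-8-4-30, 12-3-13-40 and 2-8-4-35 had run 2 levels of 92.5, 92.7 and 92.7%, and 69.1, 60 and 63.7% of them were in all 3 lists. Regions with 21-19-41-28 had 89.8%, those with 14-9-3-23 had 83.8% and those with 31-3-7-33 had 83.5%. Copies outside every unified peak were read at their 5 CpGs alone. In the order of spacings just given, their run 2 levels were 93.3, 92.0, 95.2, 88.6, 81.2 and 70.6% (428 calls for the last). High levels of the first 3 spacings were thus not particular to the regions. The CpGs of the 14-9-3-23 copies had 6.94 run 2 calls each, against 1.68 in 5-8-4-30 copies.

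Copies of 4 of the spacings were taken from RefSeq promoter windows of long non-coding RNA genes. None of the windows used lies in an H3K9me3 peak, so the sequences need not stand for copies in the regions. Windows of protein-coding genes were not used, so copies in further RefSeq windows are not excluded. CpGs are in capitals, and the run starts at the first CpG shown.
5-8-4-30, Gm14149, chr2:151205081-151205149, plus strand: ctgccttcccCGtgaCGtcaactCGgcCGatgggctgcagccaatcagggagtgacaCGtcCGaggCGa
12-3-13-40, 4930481A15Rik, chr19:5406733-5406822, minus strand: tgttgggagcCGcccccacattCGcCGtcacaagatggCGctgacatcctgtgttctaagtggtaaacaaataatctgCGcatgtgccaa
2-8-4-35, Gm40127, chr3:116822947-116823017, minus strand: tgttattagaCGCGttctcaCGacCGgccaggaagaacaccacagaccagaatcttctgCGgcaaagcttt
31-3-7-33, Gm52719, chr4:124353192-124353287, minus strand: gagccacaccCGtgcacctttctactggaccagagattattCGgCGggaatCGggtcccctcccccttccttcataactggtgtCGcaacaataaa
The 69 bases of 5-8-4-30 were identical in the windows of Gm14149 and Gm35195, on chromosomes 2 and 6, and 98.6% identical in those of 4 other genes on 4 other chromosomes. The 71 bases of 2-8-4-35 were identical in the windows of Gm40127, Gm35195 and Gm41479. The 12-3-13-40 sequence had a near copy in the Gm20110 window printed above, on its minus strand. Bases 8 to 90 matched at 82 of 83 positions (98.8%):
Gm20110, chr10:99609138-99609220, minus strand: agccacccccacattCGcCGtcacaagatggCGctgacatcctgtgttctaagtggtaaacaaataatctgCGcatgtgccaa
This near copy had 4 CpGs, so it lacked the full run of 5, and 9 of 10 run 2 calls were methylated. It was the only match over 80% among the 74 windows in the regions. The 5-8-4-30 sequence matched another stretch of the same window at 54 of 69 bases (78.3%), with 30 of 31 calls methylated. For the 2-8-4-35 and 31-3-7-33 sequences the best matches in the 74 windows were only 50.7 and 43.75%.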

How the data were processed

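The deposited table gave, per CpG and bisulfite library, counts of methylated and of all calls, whole numbers without normalization per the file headers. Reads were trimmed with cutadapt 1.12 and processed with Bismark 0.23.0 and Bowtie2 2.3.0 against mm10, and HOMER 4.10.3 and bedtools 2.29.2 were used, per the submitters' processing notes, which give no order or role. Treatment of duplicates is not given in the sources used here. Peak lists were deposited as positions without scores. Every CG in 31396 promoter windows of GRCm38.p6 (395568 of 395568) had a line in the table, so positions are GRCm38, counted from 1. The unified H3K9me3 list equalled the merge of its 3 lists.

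Python 3.11.15 with numpy 2.4.6, pandas 2.3.3 and scipy 1.17.1 was used. Peaks overlapped when they shared 1 bp. Levels were pooled calls with Wilson 95% intervals. A level of 0 has a limit of 3 counts over its calls. Regions with at least 10 calls in each library entered Fisher's exact test with Benjamini-Hochberg adjustment over all unified H3K9me3 peaks tested. The procedure was tried on simulated data with independent calls, which does not cover calls that share a fragment. Named regions are the 5 with most H3K9me3 calls, the 5 with the lowest run 2 level, the 3 with the largest difference from H3K27me3 each way, the 3 farthest from a gene, the fullest 1-Mb bin and the 2 nearest each limit on either side. The bins ranked next were named after their values were seen. The regions, lists and tests were chosen with earlier results of these data known, and the CpG spacings after seeing the data, since no genome was given. GC content and the TGCCGC motif were therefore limited to promoter windows, and shared 24-base words and soft-masked shares were not run. Run numbers mark read length and were not taken to pair samples. Every count column was used (0 left out). Chromosomes X, Y and M were left out.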

Additional observations from a re-analysis of the deposited data

How the results depend on the processing

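The number of regions stayed within 1.5 times of 12401 under every alternative tried (10794 to 12711). Their H3K9me3 level of 86.5% ranged over 86.5 to 86.6% with either run alone. It was 84.8% at CpGs with at least 5 calls, 87.0% with each called CpG weighted equally, 86.3% without the 1% of regions with most calls, 86.1% with a limit of 15 CpGs per kb, 85.7% when overlap with another mark meant 50% of the peak, 86.6% with gene bodies widened by 5 kb and 86.8% for regions in all 3 lists. The H3K27me3 level of 84.0% was 82.8% with 100000 cells, 84.7% weighted equally and 67.3% at CpGs with at least 5 calls. The H3K4me1 level of 54.7% was 59.2% weighted equally. The excess over the flank, 0.522 points as a mean of runs, ranged over 0.220 to 0.823 for single runs, and was 2.40 with flanks of 5 to 10 kb and 1.02 weighted equally. The median level per region, 89.7% in run 2, was 90% in run 1. The difference from within-gene peaks kept its sign in every alternative run, from -0.87 to -0.47 points. The control list held 50.6% of the regions, or 40.4% when overlap meant 50%.

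The alternatives below change how many regions can be tested, and those numbers are not given here. Their counts alone therefore do not show a stronger or weaker difference. All peaks tested include those with another mark, which the H3K4me1 and H3K27me3 libraries read more deeply than the regions. Regions higher in H3K9me3 than in H3K27me3 numbered 16 of 633 tested (2.53%, against 7.13% of all peaks tested). They numbered 8 with a minimum of 20 calls, 10 with run 1 and 4 at shared CpGs. Regions lower numbered 0 (against 0.212% of all peaks tested), and 1 with run 1. Regions higher than in H3K4me1 numbered 99 of 425 tested (23.3%, against 41.5% of all peaks tested) and lower 1 (0.235%, against 0.181%). With run 1 they numbered 21 and 0, with a minimum of 5 calls 155 and 2, and at shared CpGs, an alternative chosen after seeing the data, 36 and 0. With the run number as a replicate block (exact stratified test) they numbered 170 and 3, from the calls of both runs, which may share molecules. Of 23 named regions, the run 1 level lay within the Wilson interval of run 2 in 10 and outside it in 13. This check leaves out the counting error of run 1. The 13 are therefore not shown to differ between runs beyond counting error. One of them, chr14:82181792-82183369, had 9 of 9 run 1 calls and 47 of 48 run 2 calls methylated. Depth limits the comparison with H3K27me3: 5316 regions (42.9%) had no call in its 250000-cell library.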

Other observations

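Methylation along the CpG-spacing copies was uneven in some spacings. In the 118 copies of 14-9-3-23 within the regions, the first and the last CpG had H3K9me3 run 2 levels of 75.8% (708 calls) and 78.6% (950 calls), and the 3 between them 90.7, 86.4 and 88.1%. In the 40 copies of 31-3-7-33 the levels in order were 63.8, 80, 80.9, 83.0 and 100%, from 40 to 58 calls each. In the 147 copies of 2-8-4-35 they lay between 95.4 and 97.7%. The orientation of a copy was read from the order of its distances.

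The regions were unevenly spread between chromosomes, from 5.96 per Mb outside protein-coding genes on chromosome 14 to 10.6 on chromosome 15. Their median distance to the next region was 19.8 kb, and 4480 (36.1%) had another within 10 kb. For H3K4me1-only CpG-poor peaks between genes the median was 6.20 kb and the share 57.2%.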
